A study of Homo sapiens with 38 samples.

Results

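RNA from the nuclei and from the cytoplasm of HCT116 cells that lack AGO1 and AGO2 was compared, and the resulting localization profile was set against that of wild-type HCT116 cells. The libraries were chosen by their titles. They are the nuclear and the cytoplasmic libraries of the AGO1/2 knockout line at passages 9, 10 and 11, which makes 6 of the 30 RNA-seq libraries in a series of 38 samples. The 6 wild-type libraries, from passages 27, 28 and 29, served for comparison. Passage numbers were read from the titles. The sample labels give a passage range of 6 to 14, which does not cover the wild-type numbers. HCT116 is an epithelial colon carcinoma line. The knockout group carried the genotype AGO1-/-, AGO2-/- and the wild-type group carried no edit, and both were grown untreated in McCoy's 5a medium with serum. The AGO1-/- line (passages 6, 7 and 8), the AGO2-/- line (passages 8, 9 and 10) and the AGO1/2/3 knockout line, which lacks AGO3 as well (passages 11, 12 and 14), gave 6 libraries each, grown untreated in the same medium, and were used to sort genes and in a closing comparison. Each genotype was 1 edited or parental line, so genotype, clonal origin and passage cannot be told apart. The replicates were passages of 1 line, and the p-values below measure the spread between those passages. Each bulk library is a scaled sample of its fraction, so less RNA of a gene per cell and fewer cells that contain it cannot be told apart.

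Argonaute proteins bind small RNAs and carry them to complementary sites, which for microRNAs lie mostly in the 3′ untranslated regions (UTRs) of mRNAs. Slowed translation and faster decay of the target mRNA in the cytoplasm are the best known outcomes, and Argonaute proteins are also found in nuclei. In fractionated cells, long noncoding RNAs (lncRNAs), small nucleolar RNAs and incompletely spliced transcripts are typical of nuclear RNA. Mitochondrial transcripts and short, efficiently exported mRNAs are typical of cytoplasmic RNA. The comparison asks where each transcript lay in cells without these Argonautes, and whether its balance between the fractions differed from that in wild-type cells.

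Expression is given as CPM, the estimated read count of a gene as a share of the library, in the usual counts-per-million unit, with library size scaled with the trimmed mean of M-values (TMM). The nuclear to cytoplasmic ratio (N/C ratio) of a gene is nuclear CPM over cytoplasmic CPM, on the log2 scale. It is relative to the average gene of a fraction and is not a count of molecules. The difference of a gene is the log2 N/C ratio in AGO1/2 knockout cells minus that in wild-type cells, so a positive difference is a higher N/C ratio in the knockout. Tests used edgeR's quasi-likelihood model with Benjamini-Hochberg adjustment over 19035 genes.

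The targeted genes were examined first. AGO1 RNA was 32.0, 31.5 and 34.7 CPM in the nuclear and 18.6, 20.3 and 20.4 CPM in the cytoplasmic AGO1/2 knockout libraries. The wild-type libraries held 139, 139 and 112 CPM in nuclei and 188, 187 and 165 CPM in cytoplasm. Every AGO1/2 knockout library lay below every wild-type library, and the log2 change from wild type was -1.99 in nuclei and -3.19 in cytoplasm. The AGO1 RNA that was left had a higher N/C ratio, with a log2 value of 0.73 ± 0.099 (SE) against -0.47 in wild type (difference 1.20 ± 0.14, adjusted p = 1.9e-04). AGO2 RNA was not reduced in cytoplasm, with 557, 626 and 557 CPM in the knockout and 495, 486 and 422 CPM in wild type, so RNA level checks the label for AGO1 and not for AGO2. The log2 N/C ratio of AGO2 was -0.67 in the knockout and -0.10 in wild type (difference -0.57, adjusted p = 0.016), a call that was lost without cytoplasmic AGO1/2 knockout passage 10 (-0.48, adjusted p = 0.052) and on the TPM scale (-0.33, adjusted p = 0.22).

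Depth ranged from 47780524 to 54097984 reads in nuclear and from 77510510 to 79731793 reads in cytoplasmic AGO1/2 knockout libraries. The wild-type libraries were shallower, with 20431557 to 26536692 and 39476205 to 43281746 reads. Libraries of the same group correlated with each other between 0.9782 and 0.9929 (Pearson's r across genes on log2 CPM), with the lowest values between wild-type nuclear libraries (0.9782 to 0.9882). Of 8 colon epithelial markers, 6 passed the filter on counts. KRT8 was between 863 and 2260 CPM of the raw library total, EPCAM between 84.3 and 251 CPM and KRT20 between 0.444 and 1.49 CPM. The knockout libraries spanned the full range of KRT8, while EPCAM did not exceed 97.8 CPM in them. CDH1 was at 5.57 to 27.5 CPM in the knockout libraries and reached 165 CPM over the 12 libraries. VIL1 and CEACAM5 stayed under 0.12 CPM in each of the 12 libraries. Of 12 markers of other cell types, CD3E and DCN were at 0 in each library and PTPRC did not exceed 0.026 CPM. In all, 5 of the 12 passed the filter on counts. The highest was COL1A1, with 3.77 to 24.1 CPM. ACTA2 was at 2.61 to 5.84 CPM, and HBA1, LYZ and VWF reached 4.3, 3.84 and 1.01 CPM.

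NEAT1 and MALAT1, the lncRNAs of paraspeckles and nuclear speckles, served as nuclear markers. NEAT1 was at 250, 217 and 324 CPM in the nuclear and 42.6, 35.8 and 49.7 CPM in the cytoplasmic AGO1/2 knockout libraries. MALAT1 was at 5556, 5414 and 6580 CPM in nuclei and 1316, 1348 and 1352 CPM in cytoplasm. For both RNAs each nuclear knockout library exceeded each cytoplasmic one, so the fraction labels held in the knockout line. The N/C ratios were 6.17-fold for NEAT1 (log2 2.63 ± 0.27, adjusted p = 6.6e-06) and 4.37-fold for MALAT1 (log2 2.13 ± 0.17, adjusted p = 2.4e-07).

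The same markers were more nuclear in wild type. NEAT1 was at 510, 516 and 982 CPM in wild-type nuclei and 37.7, 42.1 and 53.9 CPM in wild-type cytoplasm, a ratio of 15.0-fold. MALAT1 was at 11840, 13360 and 16850 CPM in wild-type nuclei and 1089, 1096 and 733 CPM in cytoplasm, a ratio of 14.4-fold. The nuclear levels of both did not overlap between the lines. The difference of MALAT1 was -1.72 ± 0.23 (adjusted p = 3.4e-04). It had a nuclear change of -1.26 and a cytoplasmic change of 0.46, both on the log2 scale. The difference of NEAT1 was -1.28 ± 0.37 (adjusted p = 0.024). The NEAT1 call was lost without any 1 of 5 libraries, namely cytoplasmic knockout passage 11, cytoplasmic wild-type passages 27 and 28 and nuclear knockout passages 9 and 10 (-1.24 to -1.15, adjusted p 0.054 to 0.061). It was also lost with counts scaled by transcript length (-0.72, adjusted p = 0.3) and without a filter on low counts (-1.16, adjusted p = 0.12).

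GAPDH mRNA, which encodes a glycolytic enzyme and served as the cytoplasmic marker, was nearly even between the fractions of the knockout. It was at 3006, 3027 and 2828 CPM in knockout nuclei and 3542, 3092 and 3474 CPM in knockout cytoplasm. In wild type it was at 1555, 1524 and 1284 CPM in nuclei and 3337, 3294 and 3249 CPM in cytoplasm. The cytoplasmic levels of the lines overlapped and the nuclear levels did not. Its log2 N/C ratio was -0.19 ± 0.094 in the knockout (adjusted p = 0.092) and -1.18 in wild type, a difference of 0.99 ± 0.13 (adjusted p = 3.6e-04). The knockout ratio of GAPDH turned positive when scaled by library size alone (0.30) or as TPM (0.85), which also corrects for transcript length, while its difference stayed between 0.86 and 1.49 under each scaling and filter tried.

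**Figure D1:**
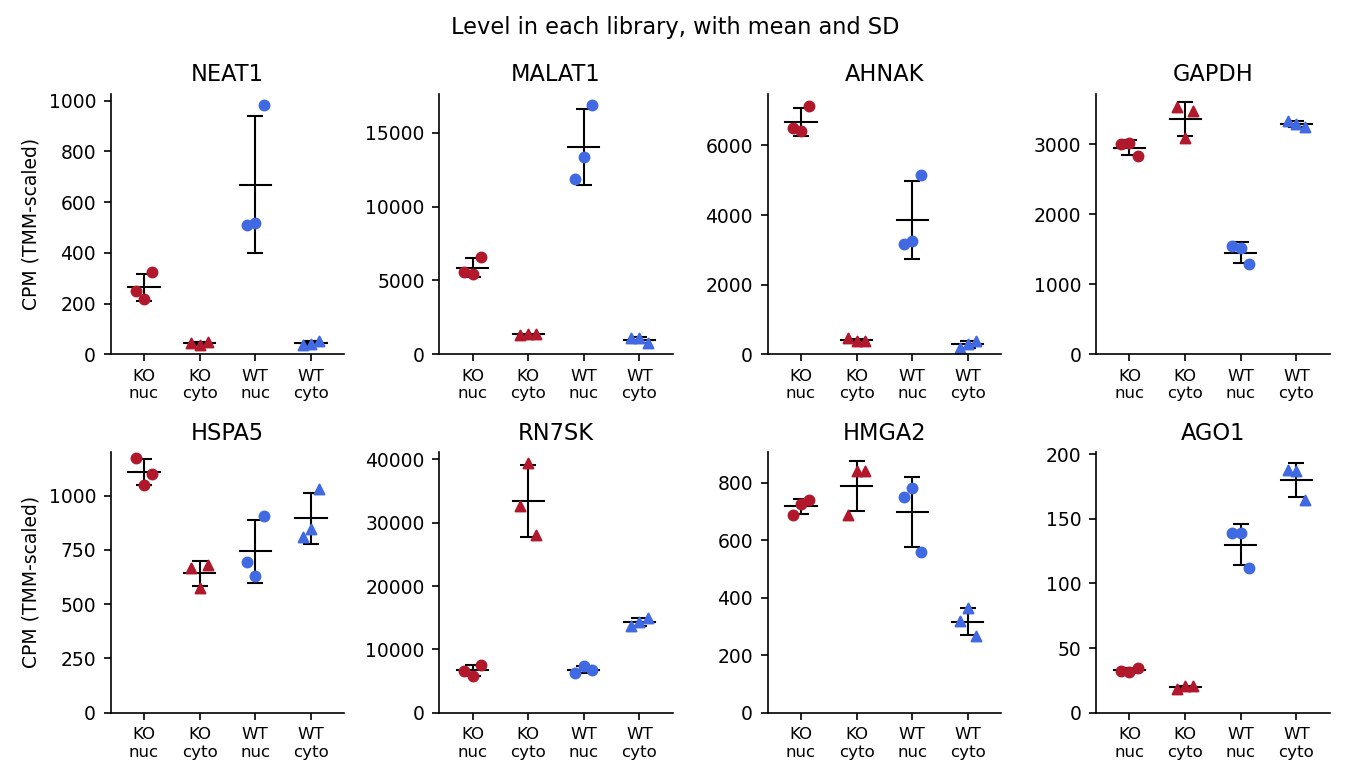
CPM (linear axes from 0) of 8 genes in each of the 12 libraries, grouped by line (KO, AGO1/2 knockout; WT, wild type) and fraction, with 1 point per library and lines at the mean and SD of the 3 passages. NEAT1 and MALAT1 are higher in nuclear than in cytoplasmic libraries of both lines, with a narrower gap in AGO1/2 knockout, whereas AHNAK keeps a wide gap in both and AGO1 is lowest in knockout cytoplasm.

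Across the 19035 genes, 3943 genes (20.7%) were at least 2-fold higher in nuclear RNA of AGO1/2 knockout cells, and 1969 genes (10.3%) were at least 2-fold higher in cytoplasmic RNA, at an adjusted p of at most 0.05. The same rule called 5327 (28%) and 2967 (15.6%) genes in wild type. The nuclear side thus held 66.7% of the called genes in the knockout. That split depends on the scaling, because a share of the reads in a fraction has no fixed zero. With library size alone the nuclear side held 91.0% of calls and the median log2 ratio of all genes moved from 0.07 to 0.56, and on the TPM scale it held 97.6 to 98.2%. ER mRNAs, housekeeping mRNAs, let-7 targets and protein-coding genes as a whole had medians below 0 in the knockout that turned positive under both. Ratios of single genes are therefore best read against the median gene.

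The profile was narrower in the knockout than in wild type. The standard deviation of log2 N/C ratios over genes was 1.47 in AGO1/2 knockout and 1.97 in wild type. Among the 11171 genes with a mean CPM of at least 5, where counting error is small, it was 0.934 and 1.13. Taking each nuclear library alone against the mean of the cytoplasmic libraries of its line, the spread was 0.869, 0.840 and 0.930 for nuclear knockout passages 9, 10 and 11. It was 1.07, 1.10 and 1.10 for the wild-type nuclear libraries. These ranges did not overlap. The ratio of the 2 spreads over all genes stayed between 0.702 and 0.791 in every refit that left out a library, thinned the reads to the smallest library or changed the scaling or filter.

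Genes largely kept their order from nuclear to cytoplasmic. The log2 ratios of the lines correlated across genes with Pearson's r = 0.866 and Spearman's rho = 0.869, given as a description since genes are not independent and each library of a line enters all of its ratios. Of the 3943 nuclear genes of the knockout, 3652 (92.6%) were also nuclear in wild type, which is 68.6% of the wild-type nuclear genes. Of the 1969 cytoplasmic genes of the knockout, 1512 (76.8%) were also cytoplasmic in wild type, or 51.0% of the wild-type cytoplasmic genes. A further 1670 nuclear and 1454 cytoplasmic genes of wild type passed neither rule in the knockout. The sides were exchanged for 5 genes that were nuclear in wild type and cytoplasmic in the knockout, and for 1 gene the other way.

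**Figure D2:**
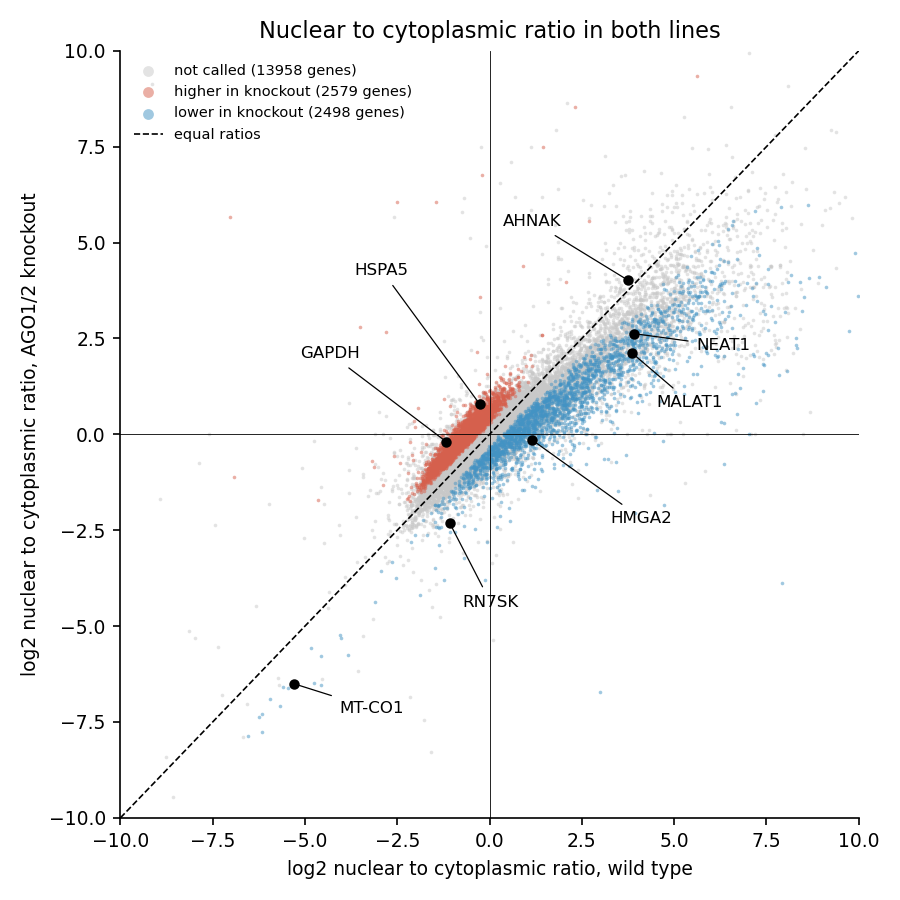
Log2 N/C ratio of each gene in AGO1/2 knockout (vertical) against wild type (horizontal), both axes linear, with genes called for a higher (red) or a lower (blue) ratio in the knockout, named genes in black and a dashed line of equal ratios; 11 genes beyond 10 on either axis are not shown. The cloud is flatter than the line of equal ratios, so genes at the nuclear end lie below it.

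Between the lines, 2579 genes (13.5%) had a higher and 2498 genes (13.1%) a lower N/C ratio in AGO1/2 knockout cells, at an adjusted p of at most 0.05. The share of higher genes among those called was 50.8%. It was 67.3 to 75.2% on the TPM scale and 66.4% with no low-count filter. To sort genes by a ratio that no library of this comparison entered, the mean ratio over the lines without AGO1, without AGO2 and without AGO1, AGO2 and AGO3 was used. Of 4978 genes that were nuclear there, 27 had a higher and 1352 a lower ratio in AGO1/2 knockout than in wild type, with a median difference of -0.97. Of 2166 cytoplasmic genes, 364 were higher and 79 lower, with a median of 0.23. The remaining 11891 genes had 2188 higher, 1067 lower and a median of 0.12. Lower ratios were thus found mostly among nuclear genes, and higher ratios mostly among genes of even or cytoplasmic distribution.

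A straight line through the difference against the mean ratio of both lines had a slope of -0.312 (R2 0.262), so genes far on the nuclear side had the lowest differences. The same ratios enter both quantities, so this line is a description. With it removed from the nuclear knockout libraries, 2347 genes were called higher and 1342 lower, and the ratio of the spreads was 0.995, as the removal implies. Named genes whose difference went with that trend are marked below by their value after its removal. GAPDH (0.86) and MALAT1 (-0.71, adjusted p = 0.045) still passed, and NEAT1 did not (-0.18, adjusted p = 0.8).

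The classes of RNA followed this pattern. Of 3213 lncRNA genes, 1560 were nuclear and 176 cytoplasmic in the knockout. Their median log2 N/C ratio was 1.11 in AGO1/2 knockout and 2.04 in wild type. Of these genes, 9 were higher and 707 lower, beside 13.5% and 13.1% of all genes. The median difference of the lncRNA genes was -0.80. With the trend removed it was -0.27, with 24 higher and 211 lower. The share of all reads that lncRNA genes took in nuclear libraries was 1.62 to 1.90% in the knockout and 3.61 to 4.43% in wild type. In cytoplasmic libraries it was 0.747 to 0.790% and 0.729 to 0.772%, so the lines overlapped in cytoplasm and not in nuclei. The 118 small nucleolar RNAs, which guide modification of ribosomal RNA, were nearly all nuclear, with 106 called nuclear and 0 cytoplasmic. Their median log2 ratio was 4.58 in the knockout and 6.20 in wild type, with 1 higher and 25 lower. The median difference of the small nucleolar RNAs was -1.30, and 0.25 with the trend removed.

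Protein-coding genes lay on the other side of the balance. Among 13670 such genes outside the mitochondrial genome, 1219 were nuclear and 1514 cytoplasmic in the knockout, and 2524 had a higher and 1401 a lower ratio than in wild type. The background over all 13683 protein-coding genes, the 13 mitochondrial ones included, was 18.4% higher and 10.3% lower. Their median log2 ratio was -0.11 in AGO1/2 knockout and -0.28 in wild type. Transcripts annotated with a retained intron took 3.94 to 4.26% of the reads of nuclear knockout libraries and 7.88 to 8.25% of nuclear wild-type libraries. In cytoplasm they took 1.37 to 1.43% and 1.45 to 1.56%. Reads of retained-intron transcripts in nuclei and the lncRNA share moved together between the lines, and their part in the gene ratios was not tested.

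The most nuclear of the called protein-coding and lncRNA genes of at least 10 CPM was MIR17HG, the host transcript of the miR-17 to miR-92 microRNA cluster. It was at 11.9, 13.2 and 13.7 CPM in knockout nuclei and 0.218, 0.379 and 0.312 CPM in knockout cytoplasm, a 42.4-fold ratio. Wild-type libraries held 33.97, 34.8 and 24.2 CPM in nuclei and 0.516, 0.426 and 0.160 CPM in cytoplasm. Nuclear levels were lower in every knockout library than in every wild-type library, whereas its difference of -0.99 ± 0.41 did not pass (adjusted p = 0.095). MIR222HG, the host of miR-221 and miR-222, had 37.7, 40.4 and 41.4 CPM in knockout nuclei against 2.35, 2.66 and 2.24 CPM in cytoplasm. Its ratio was 16.5-fold in the knockout, with a log2 ratio of 4.04 against 5.79 in wild type (difference -1.74, adjusted p = 5.2e-04, or -0.13 with the trend removed). The small Cajal body RNA SCARNA9 (17.7-fold) and the antisense lncRNA KCNQ1OT1 (15.7-fold), which silences its imprinted cluster, were also among the most nuclear.

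AHNAK was the most abundant of the 8 most nuclear genes. It encodes a very large scaffold protein and has most of its coding sequence in a single exon. It was at 6500, 6412 and 7145 CPM in knockout nuclei and 458, 392 and 393 CPM in knockout cytoplasm, a 16.2-fold ratio (log2 4.01 ± 0.29, adjusted p = 2.6e-07). Wild type had 3177, 3249 and 5147 CPM in nuclei and 173, 291 and 393 CPM in cytoplasm, a log2 ratio of 3.76. Nuclear AHNAK was higher in every knockout library than in any wild-type library, and its N/C ratio differed by 0.26 ± 0.36 (adjusted p = 0.64). With the trend removed the AHNAK difference was 1.55 (adjusted p = 0.011). Other mRNAs among the 8 most nuclear genes were CPOX, an enzyme of heme synthesis (16.1-fold), and RSRP1, a protein rich in arginine and serine (14.7-fold).

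The known lncRNAs were described by their lists, which were chosen with earlier results of these data known. Of 12 nuclear lncRNAs, 11 were tested, of which 6 were nuclear and 1 cytoplasmic in the knockout. Their median log2 N/C ratio was 2.13 in the knockout and 3.85 in wild type. None had a higher ratio and 8 had a lower one, beside the 13.1% of all genes called lower. With the trend removed 0 were higher and 5 lower. LINC-PINT, a p53-induced lncRNA, was at 121, 119 and 133 CPM in knockout nuclei and 11.9, 12.6 and 11.7 CPM in knockout cytoplasm. Its log2 ratio of 3.37 compared with 5.12 in wild type (difference -1.76, adjusted p = 4.4e-04, or -0.35 with adjusted p = 0.37 after removal of the trend). TUG1, with a log2 ratio of 0.52 in the knockout and 0.89 in wild type, differed by -0.36 (adjusted p = 0.075).

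The log2 ratio of PVT1, the lncRNA next to MYC, changed sign. It was at 11.7, 15.0 and 11.5 CPM in knockout nuclei and 29.0, 32.9 and 23.6 CPM in knockout cytoplasm. Its wild-type levels were 42.2, 47.1 and 38.8 CPM in nuclei and 23.0, 23.6 and 19.2 CPM in cytoplasm. Nuclear PVT1 was lower in each knockout library than in each wild-type library, while the cytoplasmic levels overlapped. It went from 0.96 in wild type to -1.16 in the knockout (difference -2.12 ± 0.20, adjusted p = 8.2e-05), and the difference was -2.07 with the trend removed. The knockout ratio itself was -0.66 by library size alone and -0.18 on the TPM scale, neither past 2-fold.

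Of 14 lncRNAs known from the cytoplasm, 1 was nuclear and 5 were cytoplasmic in the knockout. Against wild type 0 were higher and 6 lower, beside 13.5% and 13.1% of all genes. OIP5-AS1, which binds the RNA-binding protein HuR, was at 122, 119 and 128 CPM in knockout nuclei and 249, 289 and 277 CPM in cytoplasm. Its difference was -0.94 (adjusted p = 0.0010), with a nuclear change of -0.22 and a cytoplasmic change of 0.72. NORAD, which binds Pumilio proteins, had a log2 ratio of -0.56 in the knockout and -0.29 in wild type (difference -0.26 ± 0.19, adjusted p = 0.33). The median difference of these 14 was -0.60, and it was 0.01 on the TPM scale, where the median gene moved to 0.31. With counts scaled by transcript length it was -0.37. Only 1 of the 14 was lower, and 0 were higher, in that setting and on either TPM scale.

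Host lncRNAs of microRNAs were mostly nuclear. Of 14 hosts, 12 were tested, and 8 of them were nuclear and 0 cytoplasmic in the knockout. Against wild type 0 were higher and 6 lower, beside 13.5% and 13.1% of all genes. The median difference of the list was -0.97. With the trend removed it was -0.05, with 0 higher and 3 lower. MIR100HG, the host of miR-100, let-7a-2 and miR-125b-1, was at 84.4, 85.5 and 94.5 CPM in knockout nuclei against 191, 197 and 203 CPM in wild-type nuclei. Its cytoplasmic levels of 50.7, 61.8 and 53.7 CPM in the knockout overlapped those of wild type (45.5, 38.7 and 54.0 CPM). The difference was -1.42 (adjusted p = 1.7e-04). DLEU2, the host of miR-15a and miR-16-1, moved from a log2 ratio of 1.29 in wild type to -0.26 in the knockout (difference -1.55, adjusted p = 6.5e-04).

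The cytoplasmic end of the profile was held by transcripts of the mitochondrial genome, which encode subunits of the respiratory chain. Of 13 mitochondrial mRNAs, 12 were cytoplasmic in the knockout, with a median log2 N/C ratio of -6.54 against -5.69 in wild type. MT-CO3 had the lowest ratio, at 118, 120 and 127 CPM in knockout nuclei and 28480, 33960 and 22510 CPM in knockout cytoplasm, or 233-fold. The corresponding wild-type values were 165, 129 and 150 CPM in nuclei and 13510, 13530 and 14740 CPM in cytoplasm. The cytoplasmic levels of MT-CO3 were higher in every knockout library, and its difference was -1.31 (adjusted p = 6.6e-04).

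Together, 0 of the 13 had a higher and 10 a lower ratio in the knockout, beside 13.5% and 13.1% of all genes. Their median nuclear change was -0.38 and their median cytoplasmic change 0.78. Mitochondrial mRNAs took 12.4 to 17.8% of reads in cytoplasmic knockout libraries and 9.32 to 9.72% in cytoplasmic wild-type libraries. In nuclear libraries they took 0.257 to 0.286% and 0.342 to 0.518%. Reads of MT-ATP6 overlap those of MT-ATP8 and MT-CO3 on the same strand, so their separate values are uncertain.

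**Figure D3:**
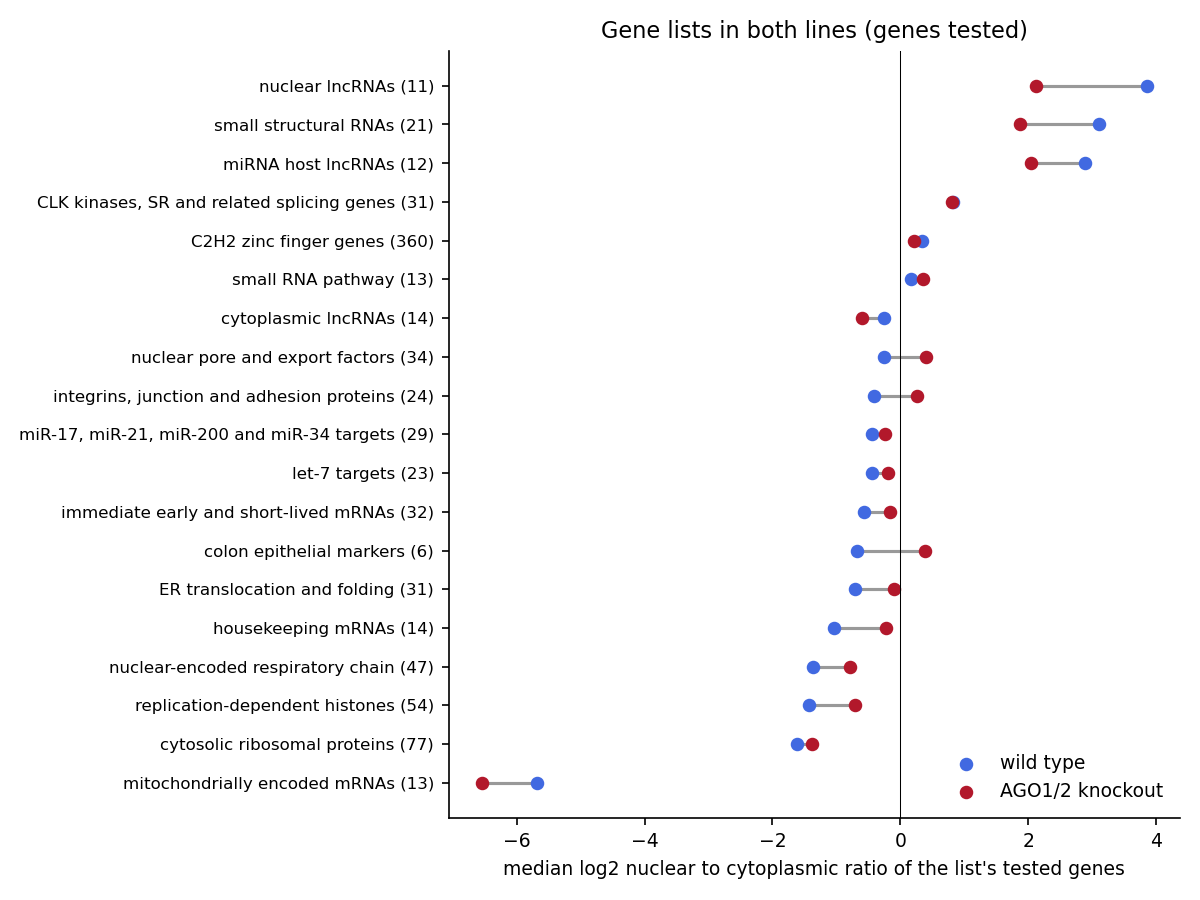
Median log2 N/C ratio of each gene list in AGO1/2 knockout and in wild type (red and blue points joined by a line), with the number of genes tested in brackets and lists ordered by their wild-type median. Mitochondrial mRNAs lie near -6.54 in the knockout and nuclear and microRNA host lncRNAs above 2, and ER, respiratory chain and housekeeping mRNAs lie closer to 0 in the knockout than in wild type.

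Housekeeping mRNAs and the mRNAs of secretory and mitochondrial proteins had higher N/C ratios in the knockout. Of 14 housekeeping mRNAs, 11 were higher and 0 lower than in wild type, beside 13.5% of all genes called higher, with a median difference of 0.91. The median nuclear change of this list was 0.91 and the median cytoplasmic change 0.005. ENO1, a glycolytic enzyme, was at 1729, 1768 and 1763 CPM in knockout nuclei and 1148, 1037 and 1115 CPM in knockout cytoplasm. In wild type it was at 1229, 1195 and 1143 CPM in nuclei and 1730, 1652 and 1778 CPM in cytoplasm. Its higher level lay in nuclei of the knockout and in cytoplasm of wild type, with no overlap, and the difference was 1.21 ± 0.11 (adjusted p = 8.2e-05). PGK1, another glycolytic enzyme, differed by 1.17 (adjusted p = 8.2e-05).

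mRNAs of endoplasmic reticulum (ER) translocation and folding are translated at the ER membrane, which is joined to the outer nuclear envelope. Of 31 such mRNAs, 0 were nuclear and 5 cytoplasmic in the knockout. Against wild type 22 had a higher and 0 a lower ratio, beside 18.4% and 10.3% of protein-coding genes. The median log2 ratio was -0.09 in the knockout and -0.71 in wild type. HSPA5, the ER chaperone BiP, was at 1171, 1051 and 1099 CPM in knockout nuclei and 667, 577 and 681 CPM in knockout cytoplasm. Its wild-type levels were 694, 631 and 905 CPM in nuclei and 810, 845 and 1030 CPM in cytoplasm. HSPA5 was thus higher in knockout nuclei and lower in knockout cytoplasm than in any wild-type library of the same fraction. Its difference was 1.05 ± 0.19 (adjusted p = 0.0019).

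Other ER genes gave similar values. The oxidoreductase PDIA3 had a log2 ratio of 0.32 in the knockout and -0.67 in wild type (difference 0.99, adjusted p = 2.7e-04). For the chaperone CANX the values were 0.26 and -0.61 (difference 0.87, adjusted p = 2.8e-04). The RNA of the signal recognition particle, which brings ribosomes to the ER, was also higher in knockout nuclei. RN7SL1, 1 of its near-identical copies, was at 22590, 22680 and 24040 CPM in knockout nuclei and 11350, 11180 and 11510 CPM in wild-type nuclei, with a difference of 0.52 (adjusted p = 0.024). With only genes of a mean count of at least 50 the RN7SL1 difference was 0.41 (adjusted p = 0.063). Reads between RN7SL1 and RN7SL2 could be divided differently. Whether ER RNA in the nuclear fraction bears on the ER mRNAs was not tested.

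Respiratory chain subunits encoded in the nucleus moved the opposite way to those encoded in mitochondria. Of 47 such mRNAs, 34 had a higher and 0 a lower N/C ratio in the knockout, beside 18.4% and 10.3% of protein-coding genes. The median difference was 0.56. ATP5F1A, a subunit of ATP synthase, was at 416, 418 and 408 CPM in knockout nuclei and 365, 311 and 357 CPM in cytoplasm. The corresponding wild-type values were 343, 346 and 326 CPM in nuclei and 577, 566 and 540 CPM in cytoplasm. Levels were higher in knockout nuclei and lower in knockout cytoplasm, without overlap, and the difference was 0.99 ± 0.11 (adjusted p = 1.6e-04).

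The mRNAs of cytosolic ribosomal proteins are short and heavily translated. Of 77, 65 were cytoplasmic and 0 nuclear in the knockout, with a median log2 ratio of -1.38 against -1.61 in wild type. Compared with wild type, 21 were higher and 6 lower, beside 13.5% and 13.1% of all genes and 18.4% and 10.3% of protein-coding genes. The counts were 66 and 0 on the log2(TPM + 1) scale, where 6005 of all genes were higher and 2917 lower, and 1 and 19 with the trend removed, so the direction for this list depended on the scale. RPS2 was at 849, 899 and 831 CPM in knockout nuclei and 4288, 4504 and 3890 CPM in knockout cytoplasm. Its log2 ratio was -2.30 in the knockout and -2.09 in wild type (difference -0.21 ± 0.15, adjusted p = 0.32). The median difference of the list was 0.22, and -0.17 with the trend removed.

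Among integrin, junction and adhesion genes, 9 of 24 had a higher and 0 a lower ratio in the knockout, beside 13.5% of all genes and 18.4% of protein-coding genes that were higher. JUP, the junction protein plakoglobin, was at 183, 166 and 244 CPM in knockout nuclei and 131, 102 and 164 CPM in knockout cytoplasm. Wild type had 128, 122.7 and 171 CPM in nuclei and 185, 188 and 268 CPM in cytoplasm. Nuclear levels of JUP overlapped between the lines and cytoplasmic levels did not, and its difference was 1.18 ± 0.30 (adjusted p = 0.013). The desmosomal cadherin DSG2 differed by 0.83 (adjusted p = 8.5e-04). CD44, a hyaluronan receptor, had a log2 ratio of 0.19 in the knockout and 0.06 in wild type (difference 0.13 ± 0.20, adjusted p = 0.69).

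The largest positive differences were of several kinds. One kind was abundant mRNAs with a higher level in knockout nuclei, a lower level in knockout cytoplasm or both. CLTC, the clathrin heavy chain, was at 2327, 2198 and 2519 CPM in knockout nuclei and 753, 635 and 660 CPM in knockout cytoplasm. Wild-type libraries held 1420, 1385 and 1126 CPM in nuclei and 975, 968 and 981 CPM in cytoplasm. Neither fraction overlapped between the lines, and the difference was 1.35 ± 0.15 (adjusted p = 1.4e-04). ANXA2, a membrane-binding annexin (difference 1.31, adjusted p = 9.2e-05), and HSP90AB1, a cytosolic chaperone (1.30, adjusted p = 0.0027), followed. The pseudogenes LDHAP4 and ANXA2P2 had positive differences as well, and are near copies of LDHA and ANXA2, so their reads are uncertain. MKKS (2.94), under a second identifier that overlaps a readthrough transcript, lost its call without any 1 of 11 libraries (2.29 to 3.15, adjusted p 0.062 to 0.098).

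The other kind had far lower levels in both fractions of the knockout, as AGO1 did. LMAN1, a cargo receptor of the early secretory pathway, was at 18.5, 16.9 and 18.6 CPM in knockout nuclei and 7.09, 6.76 and 7.95 CPM in knockout cytoplasm. Its wild-type levels were 120, 125 and 118 CPM in nuclei and 145, 145 and 155 CPM in cytoplasm. It changed by -2.75 in nuclei and -4.35 in cytoplasm, so its difference was 1.60 ± 0.12 (adjusted p = 2.4e-05). The DNA helicase RECQL changed by -2.61 in nuclei and -4.25 in cytoplasm, a difference of 1.64 (adjusted p = 8.2e-05). The glycosyltransferase GALNT3 changed by -4.32 and -6.82. It was at 0.104 to 0.151 CPM in knockout cytoplasm, so its difference of 2.49 (adjusted p = 2.2e-04) rests on few reads, and it was 0.002 on the log2(TPM + 1) scale.

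**Figure D4:**
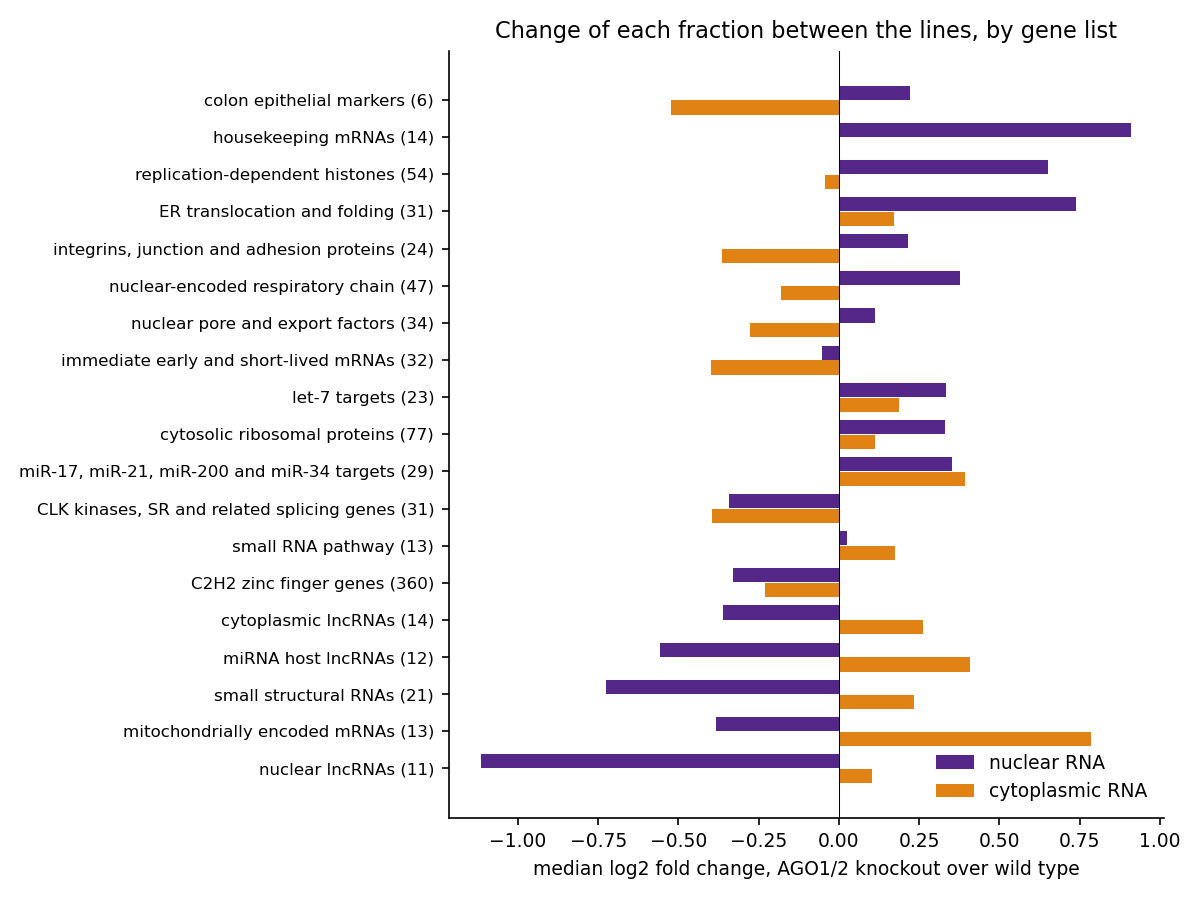
Median log2 fold change of each gene list, AGO1/2 knockout over wild type, as bars from 0 for nuclear RNA (purple) and cytoplasmic RNA (orange), with the number of genes tested in brackets and lists ordered by median difference. Housekeeping mRNAs have a nuclear median of 0.91 and a cytoplasmic one near 0, nuclear lncRNAs have -1.11 in nuclei, and mitochondrially encoded mRNAs have their larger bar in cytoplasm, at 0.78.

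The most negative differences among genes of at least 5 CPM came largely from low nuclear RNA in the knockout. A group of 4 olfactory receptor genes and pseudogenes lay between positions 5330592 and 5469422 of chromosome 11 on the minus strand (GRCh38). OR51I1 was at 11.5, 14.6 and 9.89 CPM in knockout nuclei and 2.91, 2.74 and 2.35 CPM in knockout cytoplasm. In wild-type nuclei it was at 71.2, 63.5 and 34.2 CPM, above each knockout library. Its difference was -2.56 (adjusted p = 0.0075), or -1.40 (adjusted p = 0.11) with the trend removed, and those of OR51K1P, OR51B8P and OR51A10P were -2.67, -2.47 and -2.16. ADAM32, an ADAM-family gene, gained RNA in cytoplasm, at 3.97, 4.99 and 3.86 CPM in the knockout and 1.29, 1.52 and 1.47 CPM in wild type, with a difference of -2.56 (adjusted p = 4.8e-05).

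Small structural RNAs did not share 1 pattern. Of 27 listed, 21 were tested, of which 12 were nuclear and 7 cytoplasmic in the knockout. Against wild type 2 were higher and 10 lower, beside 13.5% and 13.1% of all genes. Their median difference was -0.98, and 0.11 with the trend removed. RN7SK, the RNA that holds the elongation kinase P-TEFb inactive, had more reads in cytoplasmic than in nuclear libraries of both lines, against its known nuclear role. It was at 6620, 5876 and 7575 CPM in knockout nuclei and 32690, 39490 and 28090 CPM in knockout cytoplasm. Wild-type cytoplasm held 13740, 14290 and 14900 CPM. Nuclear levels of RN7SK overlapped between the lines and cytoplasmic levels were higher in each knockout library, and the difference was -1.24 ± 0.19 (adjusted p = 6.8e-04). An overlapping annotation named 7SK had a difference of -2.72, and the division of reads between these entries is uncertain. The small nucleolar RNA SNORA61 was at 5.87, 4.95 and 7.23 CPM in knockout nuclei and 22.5, 18.9 and 24.7 CPM in wild-type nuclei, with under 0.29 CPM in each cytoplasmic library.

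Splicing genes are known for introns that are kept in nuclear transcripts. Of 31 CLK kinase, SR and related genes, 13 were nuclear and 0 cytoplasmic in the knockout, with a median log2 ratio of 0.81 against 0.83 in wild type. Compared with wild type, 4 were higher and 3 lower, near the 13.5% and 13.1% of all genes. The counts were 12 and 1 on the log2(TPM + 1) scale and 8 and 0 with the trend removed. NKTR, a cyclophilin-like protein, was at 198, 192 and 207 CPM in knockout nuclei and 49.1, 48.3 and 48.2 CPM in knockout cytoplasm. Nuclear NKTR was at 345, 365 and 359 CPM in wild type, above each knockout library, and its difference was -0.79 (adjusted p = 0.0021) but 0.05 with the trend removed. SRSF6, a splicing activator, had the opposite sign (0.67, adjusted p = 0.0039). DDX5, an RNA helicase, was nuclear in the knockout (log2 1.36) and differed by 0.41 ± 0.21 (adjusted p = 0.17).

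Of 34 nuclear pore and export factors, 11 were higher and 0 lower, beside 13.5% of all genes and 18.4% of protein-coding genes that were higher. The pore component NUP93 differed by 0.80 (adjusted p = 0.012). Of 32 immediate early and short-lived mRNAs tested among 33, 4 were higher and 1 lower, near the 13.5% of all genes that were higher. The transcription factor MYC was at 153, 156 and 171 CPM in knockout nuclei and 138, 138 and 155 CPM in knockout cytoplasm, and both levels were below those of wild type. It changed by -0.75 in nuclei and -1.36 in cytoplasm (difference 0.61, adjusted p = 0.0030). Of 54 replication-dependent histone mRNAs tested among 68, which lack poly(A) tails, 10 were higher and 1 lower, near the 18.4% of protein-coding genes that were higher, with H1-4 at 0.97 (adjusted p = 0.016). Of 360 C2H2 zinc finger genes tested among 476, 19 were higher and 49 lower, with ZNF91 at -1.60 (adjusted p = 9.8e-05). The share that was lower was near the 13.1% of all genes and above the 10.3% of protein-coding genes. The share of zinc finger genes that was higher was below the 13.5% of all genes and the 18.4% of protein-coding genes. On the log2(TPM + 1) scale 80 were higher and 27 lower, and 26 and 17 with the trend removed. The median difference of the zinc finger list was -0.08, and it turned positive on the TPM scale and with the trend removed.

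The small RNA pathway was examined through 13 genes, of which 0 were nuclear and 1 was cytoplasmic in the knockout. Against wild type 4 were higher and 3 lower, beside 13.5% and 13.1% of all genes and 18.4% and 10.3% of protein-coding genes. With counts scaled by transcript length 1 was higher and 4 lower, so nothing is read from the counts of this list. AGO3, the remaining family member named in the series, was at 117 and 116 CPM in knockout nuclei of passages 9 and 11, with passage 10 the highest of the 3. Knockout cytoplasm held 98.4, 104 and 108 CPM. In wild type it was at 154, 169 and 137 CPM in nuclei and 82.6, 88.7 and 69.1 CPM in cytoplasm. AGO3 was thus lower in knockout nuclei and higher in knockout cytoplasm, without overlap (difference -0.74 ± 0.15, adjusted p = 0.0029), and the difference on the TPM scale was -0.47 (adjusted p = 0.079). TNRC6C, a GW182 scaffold of silencing, differed by 0.67 (adjusted p = 0.0048), or by 0.45 (adjusted p = 0.097) with counts scaled by transcript length. DICER1 differed by -0.60 ± 0.24 (adjusted p = 0.085).

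Classic targets of microRNAs were then considered. Sequences are shown for microRNAs picked because a listed target of theirs had a lower N/C ratio in the knockout. Other listed targets did not, as given below. The sequence of miR-122, a liver microRNA, serves as a contrast. They are the RefSeq mature sequences (GRCh38.p14), 5′ to 3′, with the seed (bases 2 to 8) in capitals.
hsa-let-7a-5p: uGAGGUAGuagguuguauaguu
hsa-miR-17-5p: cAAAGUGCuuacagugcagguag
hsa-miR-200b-3p: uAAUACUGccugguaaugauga
hsa-miR-122-5p: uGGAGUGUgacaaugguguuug

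Matches to these seeds in 3′ UTRs were found by their letters alone. One match per gene is printed for the listed targets with lower ratios that are named below. It is from the reference genome (GRCh38) on the strand of the gene, with the 7 letters opposite the seed in capitals. The HMGA2 and NR6A1 windows hold a let-7 match at chr12:65963302-65963330 (plus strand) and chr9:124522300-124522328 (minus strand). The TGFBR2 window holds a miR-17 match at chr3:30691856-30691884 and the WASF3 window a miR-200b match at chr13:26685988-26686016, both on the plus strand.
HMGA2: acgttcgatttCTACCTCagcagcagttg
NR6A1: gacaaagatgaCTACCTCaatggaaatgg
TGFBR2: caataacatttGCACTTTattaatgcctg
WASF3: ctgggtcttttCAGTATTtactgtgtaat

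HMGA2 encodes a chromatin protein of fetal tissue and tumours, and its 3′ UTR of 2999 nt held 4 let-7 seed matches. HMGA2 was at 687, 725 and 740 CPM in knockout nuclei and 688, 839 and 840 CPM in knockout cytoplasm. Wild-type libraries held 750, 783 and 558 CPM in nuclei and 319, 363 and 268 CPM in cytoplasm. Nuclear levels overlapped between the lines, and each cytoplasmic knockout library exceeded each cytoplasmic wild-type library. The nuclear change was 0.04 and the cytoplasmic change 1.32. The log2 ratio therefore went from 1.14 in wild type to -0.14 in the knockout (difference -1.27 ± 0.20, adjusted p = 8.0e-04). On the TPM scale the knockout ratio of HMGA2 was 1.04, while its difference stayed at -1.09.

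TGFBR2, a receptor of transforming growth factor β with 1 miR-17 match, also had a lower N/C ratio in the knockout. It was at 66.4, 64.7 and 67.9 CPM in knockout nuclei and 75.9, 83.4 and 75.1 CPM in knockout cytoplasm. Its wild-type levels were 79.5, 81.4 and 78.8 CPM in nuclei and 43.0, 42.0 and 51.6 CPM in cytoplasm. Knockout levels were lower in nuclei and higher in cytoplasm, without overlap (difference -1.05 ± 0.12, adjusted p = 1.9e-04). WASF3, an actin regulator with 3 miR-200b matches, was cytoplasmic in the knockout, at 3.001, 3.11 and 2.90 CPM in nuclei and 10.6, 12.9 and 10.4 CPM in cytoplasm. Its difference was -0.99 ± 0.22 (adjusted p = 0.0054), with a cytoplasmic change of 0.77, and -0.32 on the TPM scale (adjusted p = 0.3).

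Not all targets followed HMGA2. RRM2, a listed target with 1 let-7, 1 miR-17 and 1 miR-200b match, had a higher ratio. In the fit of all 30 libraries its log2 ratio was 0.06 in the knockout and -0.79 in wild type. Its difference was 0.75 to 0.95 with any 1 library left out. CCND1, with 1 miR-17 match, differed by 0.52 to 0.76 when any 1 library was left out. Its call was lost in 2 of these fits (adjusted p 0.05 to 0.051). NR6A1, an orphan nuclear receptor with 5 let-7 matches, had a difference of -0.90 (adjusted p = 0.021) through its nuclear change of -0.84, with a cytoplasmic change of 0.06. This call was lost without cytoplasmic knockout passage 9, nuclear knockout passage 10 or nuclear wild-type passages 27 or 28 (-0.85 to -0.78, adjusted p 0.053 to 0.058). Of 25 listed let-7 targets, 23 were tested, of which 5 were higher and 4 lower than in wild type, with a median difference of 0.24. The largest difference of this list was that of IGF1R, at 3.48. The IGF1R call was lost without any 1 of 8 libraries (3.10 to 3.71, adjusted p 0.05 to 0.063). Of 30 listed targets of miR-17, miR-21, miR-200 and miR-34, 29 were tested, of which 4 were higher and 5 lower, with a median difference of 0.10 (-0.01 with the trend removed). On the log2(TPM + 1) scale the counts were 10 higher and 1 lower for the let-7 targets and 11 higher and 2 lower for the others, beside 6005 higher and 2917 lower among all genes. In the count fit 13.5% of all genes were higher and 13.1% lower, and of protein-coding genes 18.4% and 10.3%, so nothing is read from these counts.

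Beyond the lists, seed matches were counted in 12181 protein-coding genes with a 3′ UTR, a description added after the data had been seen. The letters CTACCTC (let-7) occurred in 9.66% of these UTRs, GCACTTT (miR-17) in 20.7%, CAGTATT (miR-200b) in 15.8% and ACACTCC (miR-122) in 7.51%, read on the strand of the gene. Genes without a let-7 match had a median difference of 0.16, those with 1 or more had 0.03 and those with 2 or more had -0.10. However, the median UTR was 893.5 nt without a match, 2655 nt with 1 or more and 3979 nt with 2 or more. For miR-122 the median difference was 0.10 with 1 or more matches, at a median UTR of 2533 nt, and 0.16 with 2 or more. For miR-1 (ACATTCC) it was 0.06 with 1 or more matches (median UTR 2632 nt) and -0.04 with 2 or more. With 2 or more matches it was also below 0 for miR-17 (-0.001), miR-19b (-0.04), miR-21 (-0.04), miR-200b (-0.08) and miR-221 (-0.15). It was above 0 for miR-16 (0.04), miR-34a (0.02) and miR-200a (0.01). The fall was thus not particular to let-7.

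UTR length itself went with the difference. The median difference fell from 0.21 in UTRs under 500 nt to -0.04 in UTRs of 4000 nt or more. Among the UTRs of 2000 to under 4000 nt it was 0.10 in all 2309 genes, 0.05 in the 372 with a let-7 match and 0.11 in the 298 with a miR-122 match. Among those of 4000 nt or more it was -0.04 in all 1137 genes, -0.13 in the 362 with a let-7 match and -0.03 in the 259 with a miR-122 match. Among UTRs of 500 to under 2000 nt it was 0.18 in all 5009 genes, 0.13 in the 371 with a let-7 match and 0.14 in the 302 with a miR-122 match. Among UTRs under 500 nt the order was the other way, at 0.21 in all 3726 genes. It was 0.29 there both in the 72 with a let-7 match and in the 56 with a miR-122 match. Nothing was tested on these groups.

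Gene structure also differed along the profile, by the transcript of highest TPM for each protein-coding gene. The 384 genes at least 4-fold nuclear in the knockout had a median of 5 exons and a low median level of 1.13 CPM, and 15.4% had a single exon, against 3.04% of all 13670. The 945 genes 2- to 4-fold nuclear had long transcripts (median 3411 nt, 11 exons) from genes spanning 47.6 kb. The 1590 genes at least 2-fold cytoplasmic had short transcripts (1460 nt, 5 exons) from genes of 17.8 kb. Genes with a higher N/C ratio in the knockout were expressed at a median of 65.4 CPM and spanned 28.6 kb with a GC content of 50.0%. Those with a lower ratio had 17.2 CPM, 58.3 kb and 45.1%. Level enters the power of the test, so these features describe the called genes and were not tested.

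The AGO1/2 knockout was last set beside the other knockout lines, in a fit of all 30 libraries over 20104 genes. These comparisons share the 6 AGO1/2 knockout libraries. Against the AGO1 knockout, 2519 genes (12.5%) had a higher and 2623 (13%) a lower ratio in AGO1/2 knockout cells. Against the AGO2 knockout there were 1622 (8.07%) and 1640 (8.16%). Against the AGO1/2/3 knockout there were 22 (0.109%) and 28 (0.139%). The spread of ratios among genes of at least 5 CPM was 1.13 in wild type, 1.06 in AGO1 knockout, 1.004 in AGO2 knockout, 0.935 in AGO1/2 knockout and 0.943 in AGO1/2/3 knockout. The median lncRNA had a log2 ratio of 2.01, 1.85, 1.71, 1.11 and 1.41 in the same order.

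**Figure D5:**
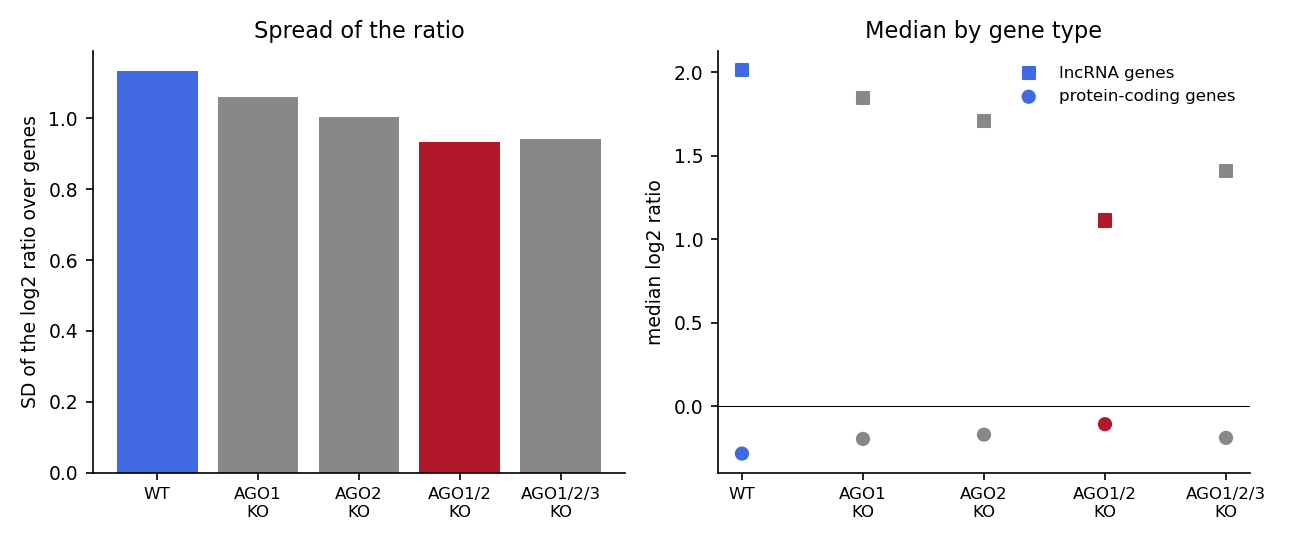
Left, bars from 0 give the standard deviation of log2 N/C ratios over genes of at least 5 CPM in each of the 5 lines. Right, squares and circles give the median log2 N/C ratio of lncRNA and protein-coding genes. The double and triple knockout lines have the smallest spreads, 0.935 and 0.943, against 1.13 in wild type, and the lncRNA median is lowest in AGO1/2 knockout at 1.11.

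Single genes showed where the AGO1/2 knockout stood among the lines. MALAT1 had log2 ratios of 2.80 in AGO1, 2.75 in AGO2, 2.12 in AGO1/2 and 2.48 in AGO1/2/3 knockout, and the AGO1/2 value was below that of the AGO1 (adjusted p = 0.0054) and AGO2 knockout (adjusted p = 0.016). It did not pass against the AGO1/2/3 knockout (-0.36, adjusted p = 0.4). GAPDH had -0.78, -0.81, -0.20 and -0.61, and differed from the AGO1 and AGO2 knockouts by 0.58 (adjusted p = 3.7e-04) and 0.61 (adjusted p = 5.1e-04). PVT1 had 0.76, 0.18, -1.17 and -0.60, against 0.94 in wild type. HMGA2 had 0.85, 0.38, -0.14 and -0.13, against 1.12 in wild type, so both lines without AGO1 and AGO2 had the lowest values.

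A few genes differed from the AGO1/2/3 knockout too. MT-CO3 had log2 ratios of -6.62 in AGO1, -6.75 in AGO2, -7.87 in AGO1/2 and -6.88 in AGO1/2/3 knockout, a difference of -0.99 from the last (adjusted p = 0.016). RN7SK had -1.49, -1.47, -2.33 and -1.44, a difference of -0.89 from the AGO1/2/3 knockout (adjusted p = 0.016). ENO1 was higher in the AGO1/2 than in the AGO1/2/3 knockout by 0.48 (adjusted p = 0.047). AHNAK stayed within 3.74 and 4.09 in the 5 lines.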

How the data were processed

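Stranded, ribosomal RNA depleted total RNA of nuclear and cytoplasmic fractions was sequenced paired-end, with 3 passages of each line. According to the study's methods, the authors used STAR for alignment (hg38) and then Salmon for counts per transcript. The submitters' notes name STAR 2.5.3a and Salmon 0.11.0, and other versions appear in the methods. The deposited values per transcript are estimated counts, TPM and an effective length, none of which the authors normalized between libraries. The authors' gene annotation is named only by a release that could not be matched, so transcripts were matched by identifier to GENCODE release 44, which placed 196040 of 200401 in 58425 genes (4361 unmatched and left out). No other column of values per sample was left unused (0).

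Estimated counts were summed per gene, rounded and fitted in R 4.3.3 with edgeR 4.0.16 (TMM, filterByExpr with a minimum count of 10, quasi-likelihood test, no covariate) over the 12 libraries in 4 groups. TMM factors were 0.757 to 0.824 in cytoplasmic and 1.09 to 1.13 in nuclear knockout libraries. The threshold was an adjusted p of 0.05, with at least 2-fold for a ratio and no fold minimum for a difference between lines. Alternatives were DESeq2 1.42.0, RLE factors, library size alone, other filters, counts scaled by effective length, limma 3.58.1 on log2(TPM + 0.1) and log2(TPM + 1), reads thinned to 19677130 per library, a replicate block, other fold minimums, removal of the trend, other sample sets and leaving out each library. TPM fold changes are on those log2 scales and understate changes of low genes.

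In data simulated from these libraries, the ratio test recovered 56% of 200 changed genes among 18613 (95.1% of those changed 4-fold). It made 112 true calls and 4 calls of unchanged genes. The test of the difference recovered 47% of 200 among 18823 (74.7% at 4-fold and 6.9% at 1.5-fold). It made 94 true calls and 12 calls of unchanged genes, so the latter exceeded 5% of its calls. In both simulations the 200 genes were changed in nuclear knockout libraries alone. Far more genes were called in the data, so these figures may not carry over to them. Named genes were, per list, up to 3 of highest CPM and up to 3 of largest called difference, the 8 highest and 8 lowest called ratios among protein-coding and lncRNA genes of at least 10 CPM, the 10 largest and 10 lowest called differences of at least 5 CPM, genes that changed sides, and GAPDH, NEAT1 and MALAT1. Others were chosen after their values were seen. The members, gene lists and rules were chosen with earlier results of these data known.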

Additional observations from a re-analysis of the deposited data

Results flagged for a closer look

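The results below had an N/C ratio that differed between the AGO1/2 knockout and wild-type lines by edgeR's test of the difference itself, at an adjusted p of at most 0.05. In all, 2579 genes had a higher and 2498 a lower ratio in the knockout. Among the marker RNAs the log2 difference was -1.72 for MALAT1, -1.28 for NEAT1 and 0.99 for GAPDH.

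The lowest differences among genes of at least 5 CPM were -2.72 for 7SK, -2.67 for OR51K1P, -2.61 for SNORA61 and -2.56 for both ADAM32 and OR51I1. They were -2.47 for OR51B8P, -2.39 for SLC16A4-AS1, -2.32 for TAS2R30, -2.21 for GUSBP9 and -2.16 for OR51A10P. The 7SK entry lost its call without a low-count filter (-2.60, adjusted p = 0.056). SNORA61 lost its call on the log2(TPM + 0.1) scale (-3.41, adjusted p = 0.17), and its difference was -0.66 with the trend removed.

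The highest differences were 2.94 for MKKS, 2.49 for GALNT3, 1.82 for LDHAP4, 1.64 for RECQL, 1.60 for LMAN1 and 1.45 for FMC1-LUC7L2. They were 1.42 for ANXA2P2, 1.35 for CLTC, 1.31 for ANXA2 and 1.30 for HSP90AB1. FMC1-LUC7L2 is a readthrough gene that shares sequence with its parts.

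Of the genes on opposite sides of a 2-fold ratio in the lines, MDFIC had a difference of 6.30 and BMPR1AP1 of -6.56. MDFIC lost its call when any of 4 libraries was left out (5.49 to 5.98, adjusted p 0.053 to 0.054).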

How the results depend on the processing

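Genes called nuclear in AGO1/2 knockout (3943) numbered 6143 with library size alone, 8628 on log2(TPM + 0.1), 1808 at a mean count of at least 50, 6520 with no fold minimum and 2312 at 4-fold or more. Genes called cytoplasmic (1969) numbered 609 with library size alone, 158 and 114 on log2(TPM + 0.1) and log2(TPM + 1), 1214 at a mean count of at least 50, 5638 with no fold minimum and 203 at 4-fold. Genes with a higher ratio than wild type (2579) numbered 3917 in the fit of all 30 libraries, 5966 and 6005 on both TPM scales and 189 with a difference of at least 1. Genes with a lower ratio (2498) numbered 1629 without a low-count filter, 1342 with the trend removed and 1354 with a difference of at least 1. Leaving out 1 library gave 3665 to 4214 nuclear, 1864 to 2216 cytoplasmic, 1932 to 2948 higher and 1826 to 2568 lower genes.

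The 2 fractions of a passage deviated together with r between -0.0219 and 0.435, and knockout passage 9 (-0.0219) did not correlate best with its own number, so passages were not treated as pairs. For every other passage r was 0.151 to 0.435, above its mean r with other passage numbers. Whether equal numbers mark the same culture is not stated. The replicate block gave 4961 higher and 3928 lower genes.

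Of 6732 single-gene values under alternatives, 6231 kept direction and call, 227 gained and 257 lost a call and 17 reversed. On the TPM scales the difference was 0.027 for SNHG29 on both, 0.19 and 0.18 for RPS7 and -0.29 for IGF1R with a pseudocount of 1. These signs are opposite to those of the count fits. With any 1 library left out, the count fits gave -0.77 to -0.59 for SNHG29, -0.85 to -0.59 for RPS7 and 3.10 to 3.95 for IGF1R. The knockout ratio was 1.09 on both for ATP5F1B, 1.07 and 1.06 for P4HB, and 1.04 and 1.03 for HMGA2. With the trend removed the difference was 0.052 for NKTR, 0.066 for PNISR, 0.57 for SCARNA9, 0.34 for KCNQ1OT1, 0.24 for N4BP2L2-IT2 and 0.83 for RSRP1. The cause of these changes was not tested beyond the construction of each alternative.

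Wild-type libraries were shallower, and thinning to the smallest library gave 3111 nuclear, 1639 cytoplasmic, 2123 higher and 2004 lower genes.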
